A study of Caenorhabditis elegans with 4 samples.

Results

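Maternally supplied Notch and blastomere fate mRNAs were followed through an RNA immunoprecipitation (RIP-seq) of CeLIN41, the C. elegans RNA-binding protein LIN-41. The group holds 7 genes of the 20392 in the deposited tables: the Notch receptor glp-1, its ligand apx-1, its effector lag-1, the fate regulators skn-1 and pal-1, and pop-1 with its kinase lit-1. They were chosen by name for their known roles and found through their WormBase identifiers, and all 7 passed the filter on low counts. The experiment compared RNA recovered with FLAG beads (IP) with RNA of the lysate (input), to find RNAs enriched in the IP. There were 4 libraries of stranded mRNA, an IP and an input for each of 2 biological replicates, whose worms were raised in separate weeks. IP and input came from the same young adult whole worms, of lab strain 1587. These worms carried the mutation lin-41(rrr3) on chromosome I and a single-copy rescuing transgene, rrrSi367, on chromosome II. The transgene expresses FLAG-GFP-TEV-LIN-41 from the lin-41 promoter with the full-length lin-41 3′-UTR and carries unc-119(+). The tagged protein was therefore recovered only from cells in which this promoter is active, and RNA that binds to beads or tags cannot be told apart from RNA bound by CeLIN41, since a mock IP was not analysed here.

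In C. elegans the first cell fates are set by mRNAs that the mother loads into the oocyte and keeps silent until the embryo needs them. GLP-1, a Notch receptor, keeps germline stem cells dividing in the adult, and in the embryo it receives the signal that APX-1 on a neighbouring cell sends to anterior cells. SKN-1 specifies the cell that gives rise to mesoderm and endoderm, PAL-1 specifies posterior lineages, and POP-1 with LIT-1 reads the Wnt signal that separates mesoderm from endoderm. LIN-41 is present in growing oocytes, where it keeps the oocyte from entering M phase early, and it represses mRNAs there and in the soma.

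Total counts were 39432325 and 40743247 in the IPs and 33455857 and 38891261 in the inputs of replicates 1 and 2. The 100 most counted genes held 34.4% and 39.8% of the IP counts, against 24.0% and 23.5% of the input counts. The mRNA of the bait, lin-41, had 12953 and 8588 counts in the IPs, against 677 and 543 in the inputs, and its log2 fold change was 4.90 (standard error 0.13, adjusted p = 6.95e-277 by edgeR). This count includes the transgene. Among markers of the cells in a whole worm, the 5 oocyte and germline genes summed to 3590 and 3800 CPM (counts scaled by library size, here with TMM factors) in the IPs, against 1730 and 1900 in the inputs, and 3 of them were enriched and 2 depleted, with log2 fold changes from -1.15 to 1.39. Without TMM factors their sums were 2790 and 2550 CPM in the IPs, against 2470 and 2550 in the inputs. Most of the germline sum in the IPs came from cbd-1, which had 2420 and 2620 CPM with TMM factors, against 885 and 1040 in the inputs. The 4 intestinal genes summed to 956 and 769 CPM in the IPs, against 2010 and 1600 in the inputs, and the 3 muscle genes to 345 and 312 CPM, against 575 and 487. Sums of 3 hypodermal genes were 729 and 720 CPM in the IPs, against 670 and 561 in the inputs, and those of 3 neuronal genes were 217 and 218 CPM, against 185 and 196. Without TMM factors both turned round, to 567 and 484 CPM in the IPs, against 956 and 751 in the inputs, for the hypodermal genes and to 169 and 147 CPM, against 264 and 263, for the neuronal genes. By edgeR none of the 3 hypodermal genes was called, and col-19 alone had 727 and 719 CPM in the IPs with TMM factors. Of the 3 neuronal genes 1 was enriched and 1 depleted. Most of their sum came from snb-1, which had 183 and 161 CPM in the IPs and a log2 fold change of 0.04. Sperm markers were at 4.49 and 3.32 CPM in the IPs, against 11 and 8.99 in the inputs. No marker was at 0 in any library. The 7 mRNAs described here summed to 1720 and 1810 CPM in the IPs, against 602 and 733 in the inputs. With TMM factors the germline, hypodermal and neuronal sums were higher in the IPs as well. The part of tissue of origin in the enrichment of the 7 mRNAs was not tested. In the marker levels of the inputs, from whole-worm lysate, fewer cells of a type and less RNA per cell cannot be told apart.

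Of the 7 mRNAs, 6 were enriched in the IP and 1, pop-1, was depleted (edgeR's quasi-likelihood test on TMM-scaled counts with the replicate as a block, Benjamini-Hochberg adjusted p threshold of 0.05). Over all 14029 genes tested, 32.9% were enriched and 35.4% were depleted. The log2 fold changes of the 7 had a median of 1.09 and ranged from -1.30 to 1.93, compared with a median of -0.14 and a 5th to 95th percentile range of -1.85 to 2.24 over all tested genes. Thus these mRNAs lay in the upper and lower parts of the distribution and not in its tails, and the enriched ones were far below lin-41 itself. The measure of the study, IP enrichment, is the IP minus the input on a log2 scale, where counts were first scaled to library size, a pseudocount of 8 was added and the libraries were made alike by quantile normalization. By this measure 5 mRNAs were above 0 in both replicates (38.5% of tested genes), pop-1 was below 0 in both (47.9%), and lag-1 changed sign between replicates. None of the 7 reached 2-fold in both replicates, as 11.8% of tested genes did.

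**Figure D1:**
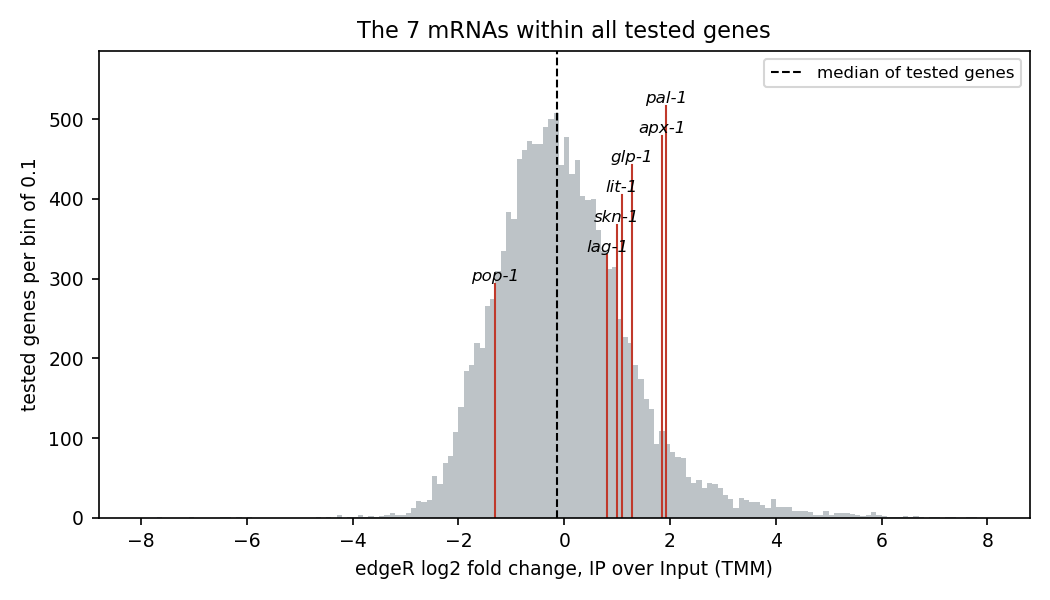
Histogram of the edgeR log2 fold change of IP over input (x axis, TMM scaling) over the 14029 tested genes (y axis, genes per bin of 0.1), with the 7 mRNAs as red lines and the median of all tested genes as a dashed line. The lines of 6 mRNAs lie between 0.81 and 1.93, right of the median at -0.14, and pop-1 lies at -1.30.

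The Notch receptor mRNA glp-1 (WBGene00001609, chromosome III) had 4429 and 3303 counts in the IPs (replicate 1 given before replicate 2, as for all genes), against 2543 and 2891 in the inputs. Divided by the counted gene length and with no TMM factors, this was 26.1 and 18.8 CPM per kilobase in the IPs, against 17.6 and 17.2 in the inputs. The groups did not overlap, but the IP replicates lay further apart than the inputs. Its log2 fold change was 1.28 (standard error 0.10, adjusted p = 4.07e-34 by edgeR), a 2.43-fold enrichment, and its log2 IP enrichment was 0.83 and 0.60 (mean 0.72 ± 0.16, SD, n = 2).

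For apx-1 (WBGene00000168, chromosome V), a ligand of the Delta/Serrate/LAG-2 family that the posterior cell presents to GLP-1, 10667 and 10832 counts were found in the IPs, against 4364 and 5986 in the inputs. Its level was 115 and 113 CPM per kilobase in the IPs, against 55.3 and 65.3 in the inputs. The IP replicates agreed closely and were well above both inputs. It was enriched 3.61-fold, with a log2 fold change equal to 1.85 (standard error 0.12, adjusted p = 1.69e-52 by edgeR). The log2 IP enrichment was 1.12 and 0.99 (mean 1.05 ± 0.09, SD, n = 2), with the smallest SD of the 7. Within a library, the level of apx-1 was 4.40 and 6.0 times that of glp-1 in the IPs, against 3.14 and 3.79 times in the inputs.

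The transcription factor mRNA lag-1 (WBGene00002245, chromosome IV), which encodes the CSL protein that carries the Notch signal to the DNA, had 6322 and 6079 counts in the IPs, against 5014 and 7354 in the inputs. Its level was 62.8 and 58.4 CPM per kilobase in the IPs, against 58.7 and 74.1 in the inputs. Here the groups overlapped, with input replicate 2 above both IPs. The TMM-scaled test called it enriched with a log2 fold change equal to 0.81 (standard error 0.11, adjusted p = 7.37e-13 by edgeR). Its log2 IP enrichment was 0.19 and -0.14 (mean 0.03 ± 0.23, SD, n = 2), which is within the spread between replicates. Of the Notch signaling members, the ligand and the receptor thus passed the TMM-scaled test and had an IP enrichment above 0 in both replicates, and lag-1 met only the first.

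The homeodomain mRNA pal-1 (WBGene00003912, chromosome III), the worm Caudal gene, was the most abundant of the 7 per length and had the largest mean enrichment. It had 17220 and 17149 counts in the IPs, against 6441 and 9302 in the inputs. Its level was 324 and 312 CPM per kilobase in the IPs, against 143 and 178 in the inputs, without overlap. The log2 fold change was 1.93 (standard error 0.13, adjusted p = 1.01e-46 by edgeR), or 3.82-fold, and the log2 IP enrichment was 1.20 and 0.92 (mean 1.06 ± 0.19, SD, n = 2).

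The mRNA of skn-1 (WBGene00004804, chromosome IV), a transcription factor that also controls stress responses in the adult intestine, had 9473 and 7866 counts in the IPs, against 6863 and 8096 in the inputs. At 75 and 60.3 CPM per kilobase in the IPs, against 64.1 and 65.0 in the inputs, the groups overlapped. Its log2 fold change was 0.99 (standard error 0.12, adjusted p = 4.35e-17 by edgeR), a 1.99-fold enrichment. The log2 IP enrichment of 0.23 and 0.05 had a mean of 0.14 ± 0.13 (SD, n = 2), close to the size of its spread.

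The kinase mRNA lit-1 (WBGene00003048, chromosome III) encodes a Nemo-like kinase that, with the β-catenin WRM-1, lowers nuclear POP-1. It had 4515 and 4315 counts in the IPs, against 3084 and 4122 in the inputs, or 32.3 and 29.9 CPM per kilobase in the IPs, against 26 and 29.9 in the inputs. The lower IP was at the level of the higher input. Its log2 fold change was 1.09 (standard error 0.10, adjusted p = 1.47e-24 by edgeR), a 2.13-fold enrichment, and its log2 IP enrichment was 0.54 and 0.38 (mean 0.46 ± 0.12, SD, n = 2).

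The exception was pop-1 (WBGene00004077, chromosome I), the worm TCF/LEF transcription factor on which LIT-1 acts. It had 127 and 74 counts in the IPs, against 427 and 402 in the inputs. This was 2.45 and 1.38 CPM per kilobase in the IPs, against 9.69 and 7.85 in the inputs, and both IPs were far below both inputs. Per library size, IP over input came to 0.252 in replicate 1 (0.205 to 0.308) and to 0.176 in replicate 2 (0.135 to 0.226), where the ranges are Clopper-Pearson exact intervals at 95%. These intervals cover counting error only. Its log2 fold change was -1.30 (standard error 0.18, adjusted p = 6.28e-13 by edgeR), or 2.46-fold lower in the IP, and the log2 IP enrichment was -0.84 and -1.12 (mean -0.98 ± 0.20, SD, n = 2). With TMM scaling the kinase and its substrate thus moved in opposite directions. The level of lit-1 was 13.2 and 21.7 times that of pop-1 in the IPs, against 2.68 and 3.81 times in the inputs. The counted length of pop-1, 1317 bases, equals the coding length with the stop codon in Ensembl release 115, as it does for 4.74% of the 13598 tested coding genes. The counted lengths of the other 6 exceed their coding lengths by 180 to 1741 bases. Such an excess does not show that UTRs were counted, since the coding length is that of 1 annotated transcript. The longest annotated transcripts of lag-1 and pop-1 have 4541 and 2560 bases, against counted lengths of 2553 and 1317. The effect of these lengths on the ratios of pop-1 and lag-1 was not tested.

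**Figure D2:**
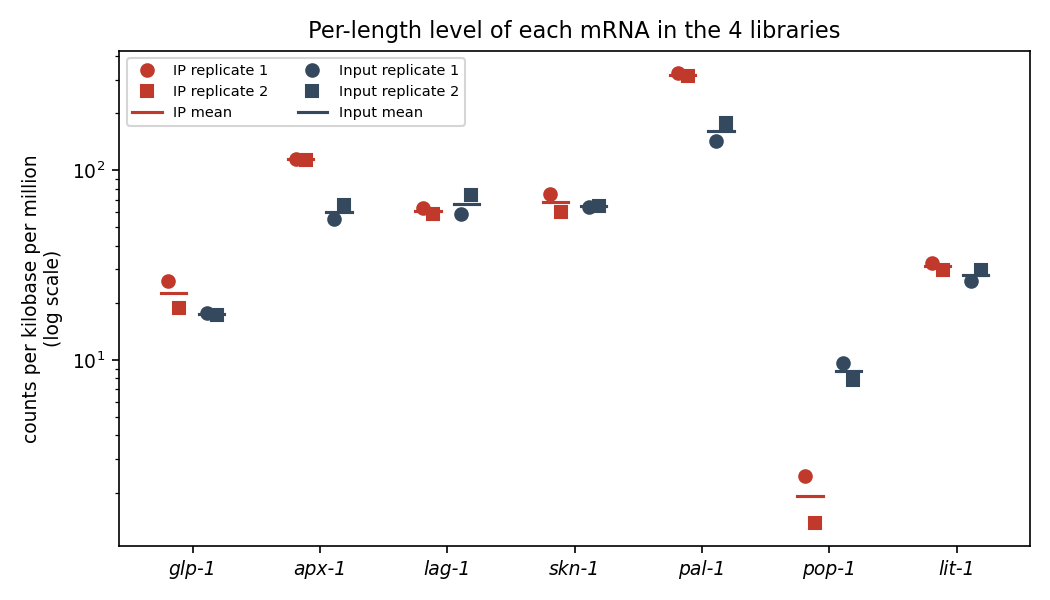
Level of each mRNA in CPM per kilobase of counted gene length (y axis, log scale, library size only) for the 7 mRNAs (x axis), with IP in red left of input in dark blue, circles for replicate 1, squares for replicate 2 and lines for the mean of 2 replicates. The IPs of apx-1 and pal-1 lie well above their inputs, those of lag-1, skn-1 and lit-1 meet or overlap them, and those of pop-1 lie far below.

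Levels of different mRNAs were compared per length within libraries. The counted lengths of lag-1 and pop-1 fall well short of their longest annotated transcripts, so their places depend on the gene models used. In the IPs the order was pal-1 at 318 ± 8.29 CPM per kilobase, apx-1 at 114 ± 1.40, skn-1 at 67.7 ± 10.4, lag-1 at 60.6 ± 3.08, lit-1 at 31.1 ± 1.71, glp-1 at 22.4 ± 5.13 and pop-1 at 1.91 ± 0.754 (SD, n = 2). In the inputs pal-1 at 160 ± 24.5 was followed by lag-1 at 66.4 ± 10.9, skn-1 at 64.5 ± 0.670, apx-1 at 60.3 ± 7.04, lit-1 at 27.9 ± 2.75, glp-1 at 17.4 ± 0.275 and pop-1 at 8.77 ± 1.30. Neighbours in these orders had separate replicate values apart from skn-1 and lag-1 in the IPs, and the neighbours lag-1, skn-1 and apx-1 in the inputs, whose replicates overlapped. So apx-1, which overlapped skn-1 in the inputs, stood above lag-1 and skn-1 in the IPs. By mean IP enrichment the order was pal-1, apx-1, glp-1, lit-1, skn-1, lag-1 and pop-1. The replicates of pal-1 and apx-1 overlapped, as did those of skn-1 and lag-1, while the other neighbours were separate. By the TMM-scaled log2 ratio, glp-1 and lit-1 overlapped too, as did lit-1 and skn-1.

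The calls of the smaller changes depended on the scaling, and so did the sign for lag-1. When TMM was replaced by library size only, the median log2 fold change of all tested genes moved to -1.07, and 11.9% of them were enriched and 66.5% depleted. Under this scaling apx-1 and pal-1 stayed enriched, at 0.92 and 1.0, and pop-1 stayed depleted, at -2.23. The other 4 were no longer called, with log2 fold changes of 0.34 for glp-1 (adjusted p = 0.0534 by edgeR), 0.16 for lit-1 (0.40), 0.06 for skn-1 (0.766) and -0.12 for lag-1 (0.522). Replacing TMM by library size moves the log2 fold changes of all genes by nearly the same amount. Distances from the median tested gene therefore could hardly differ between the scalings, and their agreement is no check on the calls. For lag-1 the distance came to 0.95 under TMM scaling and 0.94 under library-size scaling. Under either scaling it came to 1.41 for glp-1 and -1.16 for pop-1. All these values are relative abundances, and no spike-in was used here.

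**Figure D3:**
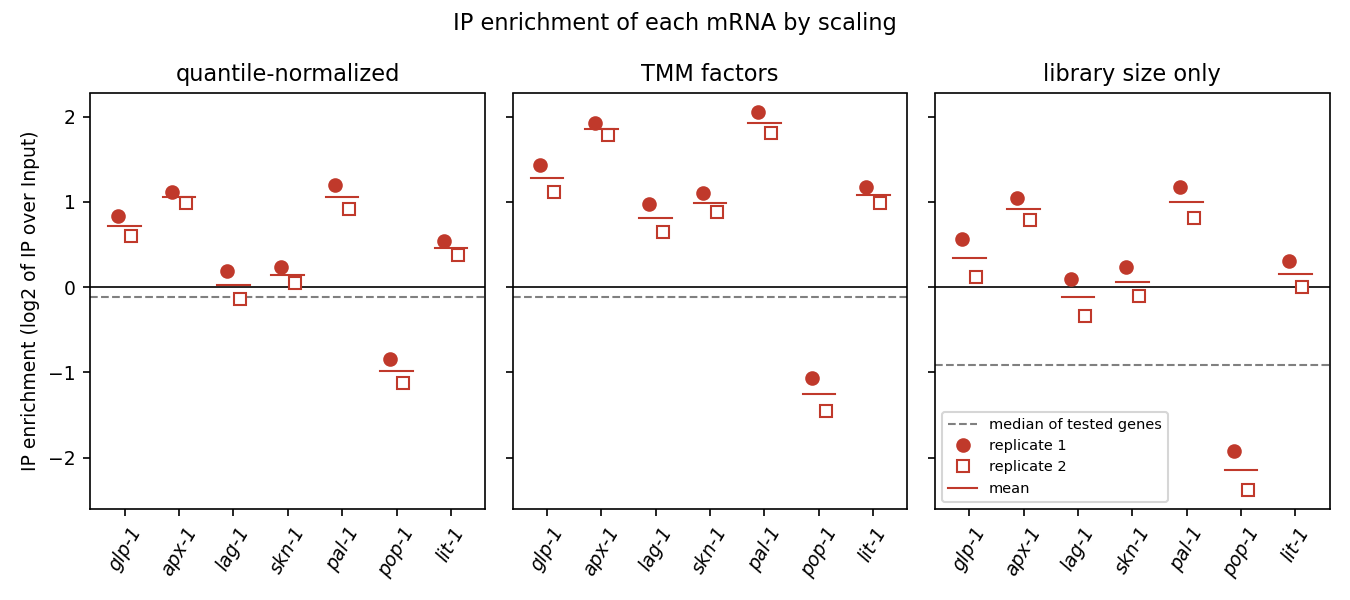
IP enrichment (y axis, log2 of IP over input after a pseudocount of 8) of the 7 mRNAs (x axis) in replicate 1 (filled circles) and replicate 2 (open squares) with their mean (red line), after quantile normalization (left), with TMM factors (middle) and with library size only (right). The dashed line is the median of the tested genes, at -0.11, -0.12 and -0.92. In each panel the means of 6 mRNAs lie above it and that of pop-1 lies below it. The middle and right panels differ mainly by a shift shared by the genes, so their agreement is no separate check.

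The 7 mRNAs share long annotated 3′-UTRs. In Ensembl release 115 (WBcel235, a later assembly than the ce10 of the counts) they have 366 bases in glp-1, 502 in pal-1, 527 in lag-1, 725 in skn-1, 772 in apx-1, 938 in lit-1 and 1225 in pop-1, compared with a median of 145 bases over the 12990 coding genes among those tested that have one. This places them between the 83.2nd and the 98.7th percentile. Each length is that of the gene's annotated transcript with the most exonic bases, and which transcript these worms express was not tested. The longest 3′-UTR belongs to pop-1, the depleted mRNA. A relation of 3′-UTR length to enrichment was not tested. Genes on the opposite strand overlap glp-1, lag-1, pal-1 and skn-1, and the sources used here do not say whether the counting took account of strand. Most have few counts beside their partners. The largest, csn-5 opposite skn-1, had 2293 and 2051 counts in the IPs, against 4274 and 4377 in the inputs. Genes on the opposite strand also overlap other genes named below, among them spn-4, aph-1, pen-2, hop-1, bar-1, hlh-1, end-3, fbf-1 and tbx-38. The effect of these overlaps on the counts was not tested.

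The rest of the Notch pathway was taken from a list of receptors, ligands, proteases and cofactors. By edgeR 8 of its 15 tested genes were enriched and none was depleted, beside 32.9% and 35.4% of all tested genes. At an unadjusted p threshold of 0.05 none was depleted either, nor was any by DESeq2, which called 7 enriched. With at least 10 counts in every library 1 gene, dsl-1, was depleted. With library size only 4 genes were enriched and 7 depleted, beside 11.9% and 66.5% of all tested genes. With TMM the list had a median of 0.47, compared with -0.14 over all tested genes. Its highest genes encode subunits of γ-secretase, the membrane protease that releases the Notch intracellular domain. These were the presenilin sel-12 at 1.69 (standard error 0.12, adjusted p = 3.14e-45 by edgeR), aph-1 at 1.52 (0.10, 9.87e-48) and pen-2 at 1.46 (0.10, 6.20e-44). The presenilin hop-1 was at 0.85, and the nicastrin aph-2 at -0.08 did not pass the test (adjusted p = 0.599 by edgeR). The last 2 genes, and the next 2, were chosen after their values were seen. The paralog of glp-1, lin-12, had 174 and 113 counts in the IPs, against 247 and 321 in the inputs, and its log2 fold change of -0.21 did not pass the test (adjusted p = 0.276 by edgeR). The ligand lag-2 had 13 and 10 counts in the IPs, against 32 and 19 in the inputs, too few to resolve a change of its size (-0.37, standard error 0.52). The TMM-scaled log2 ratio of glp-1 exceeded that of lin-12 by 1.30 and 1.69 in the replicates, and that of apx-1 exceeded that of lag-2 by 2.56 and 1.75.

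Among genes listed as responding to Notch signaling, 8 of 11 were tested. Of these 4 were enriched and 2 depleted (median 0.06), beside 32.9% and 35.4% of all tested genes. With library size only 3 were enriched and 5 depleted, beside 11.9% and 66.5% of all tested genes. The germline stem cell targets of GLP-1 led. The log2 fold change was 2.04 for sygl-1 (18279 and 17971 counts in the IPs, against 6545 and 8750 in the inputs) and 1.66 for lst-1. That of ref-1, a bHLH gene of the embryonic response, was 1.51. The T-box genes tbx-38 at -1.85 and tbx-37 at -1.45, which the embryo transcribes itself in anterior cells, were depleted. They are near-identical paralogs with 15 to 127 counts per library, so reads may have been split between them, and DESeq2 did not call tbx-37 (adjusted p = 0.0505).

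Of the Wnt and MAP kinase genes that act with lit-1 and pop-1, all 21 were tested, and 11 were enriched and 7 depleted (median 0.24), beside 32.9% and 35.4% of all tested genes. With library size only 6 were enriched and 12 depleted, beside 11.9% and 66.5% of all tested genes. The highest, the Wnt ligand mom-2, had 69360 and 73465 counts in the IPs, against 8279 and 11635 in the inputs, and its log2 fold change was 3.64 (standard error 0.18, adjusted p = 4.43e-87 by edgeR). It was followed by the kinase mom-4 at 3.42, a gene that overlaps col-64 on the same strand, and by the Dishevelled gene dsh-1 at 3.02. These 3 values exceeded that of pal-1. The lowest were the β-catenin bar-1 at -1.46, with 72 and 41 counts in the IPs, against 269 and 255 in the inputs, the 14-3-3 gene par-5 at -1.36, and tap-1, a partner of MOM-4, at -1.11. The direct partners of the kinase and its substrate, chosen after their values were seen, differed. The β-catenin wrm-1, which binds LIT-1, was enriched at 1.42 (standard error 0.11, adjusted p = 2.31e-36 by edgeR), and sys-1, the coactivator of POP-1, was at -0.07 (adjusted p = 0.576).

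RNA-binding proteins that are known to control maternal mRNAs, among them those that repress glp-1 and pal-1, were measured as mRNAs themselves. Of 20 tested, 19 were enriched and 1 depleted, with a median of 1.35, beside 32.9% enriched and 35.4% depleted of all tested genes. With library size only 10 were enriched and 2 depleted, beside 11.9% and 66.5% of all tested genes. The highest was spn-4, a regulator of glp-1 translation, at 6.48 (standard error 0.49, adjusted p = 8.78e-39 by edgeR). The repressor of pal-1 translation, mex-3, was at 3.98 (188296 and 220527 counts in the IPs, against 19203 and 25536 in the inputs). The repressor of glp-1 translation in the posterior, pos-1, was at 3.69. Both thus exceeded the mRNAs they repress. The depleted gene, fbf-2 at -1.38, has a close paralog, fbf-1, and reads of the pair may have been shared.

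The last list holds genes that the embryo switches on below SKN-1, PAL-1 and POP-1, some of which adult intestine or muscle also express. Of 17, 14 were tested, and 2 were enriched and 8 depleted (median -1.20), beside 32.9% and 35.4% of all tested genes. With library size only edgeR called 0 enriched and 12 depleted, beside 11.9% and 66.5% of all tested genes. At an unadjusted p threshold of 0.05 this scaling also gave 0 enriched. DESeq2 with its own size factors called 2 enriched. Of the somatic markers, edgeR with TMM called 4 of 4 intestinal genes depleted, and 2 of 3 muscle genes depleted and 1 enriched. The 1 pharyngeal gene was depleted, 1 of 3 neuronal genes was depleted and 1 enriched, and none of 3 hypodermal genes was called. By DESeq2 3 intestinal and 0 pharyngeal genes were depleted, and 1 hypodermal gene was enriched. The part of these tissues in the values of the zygotic list was not tested. The lowest genes of the list were the intestinal GATA factor elt-2 at -1.93, the muscle factor hlh-1 at -1.55 and the endoderm factor end-1 at -1.54. The enriched genes were end-3 at 1.16, with 128 and 142 counts in the IPs, against 100 and 108 in the inputs, and tbx-9 at 0.98. With library size only neither passed the test (0.22 and 0.04). Apart from tbx-9, genes of this list had at most 1081 counts in any library. The depletion of pop-1, at -1.30, lay outside the range of the other 6 maternal mRNAs. It lay within the wide range of the zygotic list, from -1.93 to 1.16. It also lay within those of the Notch target, Wnt and RNA-binding lists, whose lowest values were -1.85, -1.46 and -1.38. The lowest of the Notch pathway list was -0.66.

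**Figure D4:**
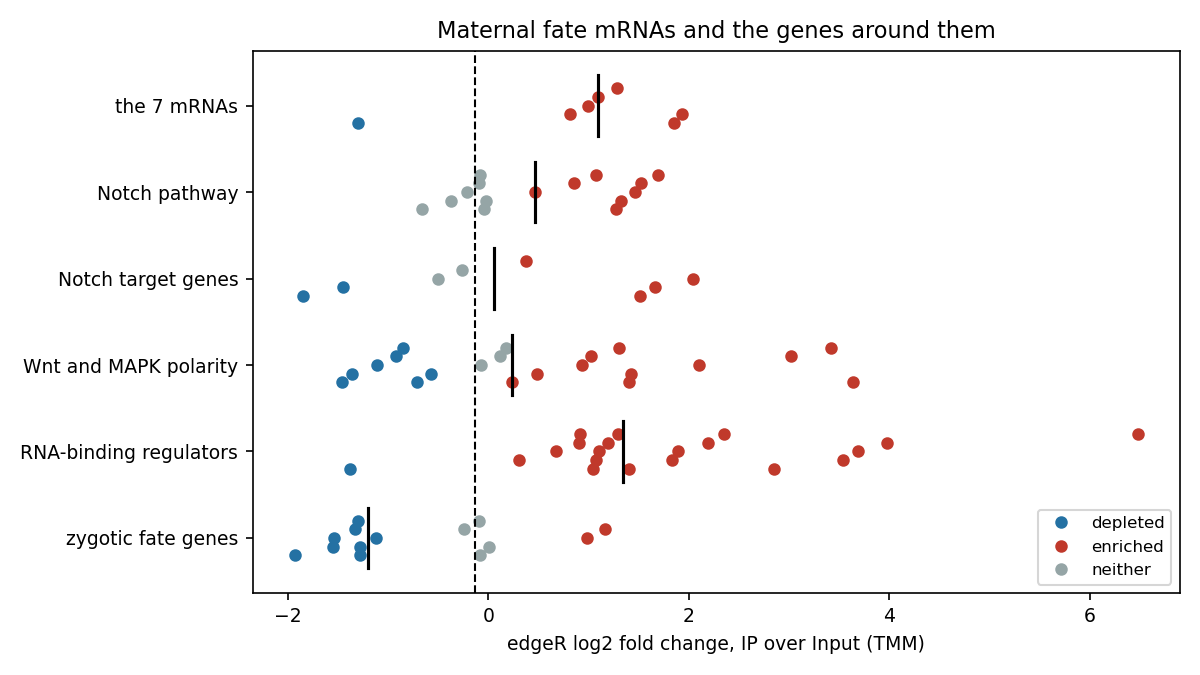
Log2 fold change of IP over input from edgeR (x axis, TMM scaling) for the tested genes of each list (rows), in red where enriched, blue where depleted and grey where neither, with the median of each list as a black bar and that of all tested genes as a dashed line. The RNA-binding regulators reach from -1.38 to 6.48 with a median of 1.35, whereas the zygotic fate genes have a median of -1.20.

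Genes with the most similar profile were ranked by Euclidean distance over the 4 normalized log2 values. The nearest to pal-1 were sygl-1 (distance 0.151), B0334.4 (0.162) and usip-1 (0.225), and the nearest to pop-1 were K02C4.5 (0.0684), lntl-1 (0.123) and M7.12 (0.133). With 4 libraries this measure mainly reflects similar expression and a similar ratio of IP to input.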

How the data were processed

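Polyadenylated RNA from IP and input of 2 replicates was sequenced as stranded libraries. The authors deposited raw counts per gene (WormBase WS220 models on assembly ce10, with the length of each gene model) and log2 values (library-size scaling, pseudocount of 8, quantile normalization). For the aligner and counter: not given in the sources used here. All 81568 deposited log2 values were recomputed from the counts to within 1e-06.

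Counts were tested with edgeR 4.0.16 (R 4.3.3): filterByExpr, TMM, replicate block, quasi-likelihood test, Benjamini-Hochberg over 14029 genes. Pairing follows the study, which subtracts each input from its own IP, and the replicates were grown in different weeks. As a check, differences between replicates in IP and input correlated at r = 0.291 across genes. The block leaves 1 residual degree of freedom and edgeR took each gene's quasi-dispersion from that of all genes, an assumption behind every p-value. Standard errors were derived as |log2 fold change| (unshrunken) over the root of F. The fits were tested on simulated data with the same dispersion in every gene, which cannot test the shared quasi-dispersion or the scaling of these libraries. Alternatives were DESeq2 1.42.0, no block, RLE, library size only, other filters, other pseudocounts and normalizations, and each library left out with no block.

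The members, gene lists and tests were chosen with earlier results of these data known. By rule, named genes are the members, lin-41, and the 3 highest and 3 lowest called genes of each list with the same sign in both replicates. For the members of highest and lowest mean IP enrichment, the 3 nearest genes are also named. Named outside the rule, after their values were seen, were hop-1, aph-2, lin-12, lag-2, dsl-1, wrm-1, sys-1, dsh-2, fbf-1, tbx-8, mex-5, mex-6 and csn-5. The markers cbd-1, col-19 and snb-1 were named in the same way, and col-64 was named for its overlap with mom-4. Annotation came from Ensembl release 115 (WBcel235) by WormBase identifier for 19870 genes. No coordinates are printed because WBcel235 differs from ce10. Other steps ran in Python 3.11.15 with pandas 2.3.3, scipy 1.17.1 and matplotlib 3.10.9. No sequences were analysed here.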

Additional observations from a re-analysis of the deposited data

How the results depend on the processing

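The calls of the 7 mRNAs were the same as with TMM and the replicate block in 9 of the 10 alternative fits, the exception being library size only, which left 2 of 6 enriched mRNAs called. Without the replicate block, 4258 genes were enriched and 4333 depleted, and 6 of the 7 mRNAs were again enriched and pop-1 depleted. No call of the 7 changed without the block. DESeq2 called 4254 genes enriched and 3236 depleted, against 4611 and 4960 with edgeR. With each library left out in turn, the enriched genes numbered 3816 to 4122 and the depleted genes 3445 to 3859. The log2 fold change then ranged from 0.60 to 1.04 for lag-1 and from -1.62 to -1.05 for pop-1, and the 7 calls were as before. Each of these fits was run without the replicate block, so it differs from the main fit in this as well. Each also has 1 library in the IP or the input, which is assumed to vary like the others.

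With library size only, 1670 genes were enriched and 9332 depleted, glp-1, lit-1 and skn-1 fell to 0.34, 0.16 and 0.06, and lag-1 turned to -0.12. Enriched and depleted genes then numbered 4 and 7 in the Notch pathway, 6 and 12 in the Wnt and MAP kinase list, and 10 and 2 among the RNA-binding regulators. Notch target genes had 5 depleted, and the zygotic list had 0 enriched by edgeR, likewise 0 at an unadjusted p of 0.05, and 2 by DESeq2 with its own size factors. DESeq2 called 1 Notch target gene depleted. With at least 10 counts in every library, 1 Notch pathway gene (dsl-1) was depleted.

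The IP enrichment with library size only was 0.34 for glp-1, 0.92 for apx-1, 0.16 for lit-1 and -2.15 for pop-1. With TMM factors it was 1.27 for glp-1, 1.85 for apx-1, 0.81 for lag-1, 0.99 for skn-1, 1.93 for pal-1, 1.09 for lit-1 and -1.26 for pop-1. A pseudocount of 1 moved none of the 7 by more than the replicate SD. TMM-scaled library sizes moved the per-length levels in the IPs to 30.7 for glp-1, 158 for apx-1, 83.8 for lag-1, 93.0 for skn-1, 441 for pal-1 and 42.9 for lit-1. In the inputs they moved to 12.6 for glp-1, 43.8 for apx-1, 48.2 for lag-1, 46.7 for skn-1, 116 for pal-1, 6.33 for pop-1 and 20.3 for lit-1. At 74 to 427 counts per library, pop-1 had the largest edgeR standard error of the 7, at 0.18.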

Other observations

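Several pairs of related genes in these lists moved apart, and the pairs below were chosen after their values were seen. The endoderm GATA factors end-3 and end-1 had log2 fold changes of 1.16 and -1.54, and the difference of their TMM-scaled log2 ratios was 2.56 and 2.80 in the replicates. For the T-box paralogs tbx-9 and tbx-8 the log2 fold changes were 0.98 and -1.33, with a difference of 2.71 and 1.92. The β-catenins wrm-1 and bar-1 were at 1.42 and -1.46, with a difference of 2.71 and 3.08. The Dishevelled genes dsh-1 and dsh-2 were both enriched, at 3.02 and 0.49, and differed by 2.36 and 2.68. The PUF genes fbf-1 and fbf-2 were at 1.40 and -1.38 and differed by 2.51 and 3.07, although reads shared between these close paralogs limit the comparison. In contrast, the CCCH genes mex-5 and mex-6 were at 1.89 and 1.83 and differed by 0.06 and 0.07. The differences were not tested, and each was of the same sign in both replicates.

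All 7 maternal mRNAs had a larger IP enrichment in replicate 1 than in replicate 2, as had 52.9% of the tested genes. By the TMM-scaled log2 ratio this also held for 7 of 7, and for 60.2% of the tested genes.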
